A study of Caenorhabditis elegans with 12 samples.

Results

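The comparison described here is the interaction of hsf-1 genotype and heat shock in whole adult Caenorhabditis elegans: the heat response of hsf-1(sy441) mutants minus the heat response of wild-type animals, on the log2 scale. All 12 libraries of the series enter it, because each of the 4 groups contributes to the difference. The wild type is the strain N2. The mutant is the strain TTV450, in which the hsf-1(sy441) allele had been outcrossed 6 times; the encoded protein is predicted to lack its transactivation domain, and the mutant is represented by this strain alone. All animals were taken on day 1 of adulthood after growth at 20 °C, and heat-shocked animals of both genotypes spent 30 min at 35 °C followed by a recovery of 1 h. The titles give 3 biological replicates for each of N2 control, N2 heat shock, sy441 control and sy441 heat shock. They do not say whether these were separate cultures, so a p-value here reflects only how far these samples scatter, which may be technical. In whole animals, fewer cells of a type and less RNA per cell cannot be told apart.

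HSF-1 is the transcription factor that binds heat shock elements and drives the classical heat shock response. After heat it raises small heat shock proteins, which hold unfolding proteins, and inducible HSP70 chaperones, which refold them with the help of DnaJ proteins and nucleotide exchange factors. HSP90 and its cochaperones keep HSF-1 inactive in unstressed cells and are themselves heat-inducible in many organisms. Worms also answer heat through the unfolded protein responses of the endoplasmic reticulum and mitochondria, through insulin signalling and the DAF-16 factor, and through immune and detoxification genes. The difference in heat response asks which of these changes are weaker, absent or larger when HSF-1 activity is reduced.

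The libraries held between 68188334 and 109248499 counted reads, and 17946 genes passed the filter on low counts. Levels are given as CPM, a gene's share of a library's counts after trimmed-mean scaling. N2 control replicate 3 stood furthest from its group, and 4 libraries are left out together in some fits below: this one, the first heat-shocked N2 library and the first library of each sy441 group. The fit without all 4 was added after the data were seen. Of the heat-shocked sy441 libraries, replicate 2 stood further from its group than the omitted replicate 1. Ribosomal RNA took 8.08% of the counts in the first sy441 control and 7.87% in the first heat-shocked sy441 library, against 1.05% to 4.41% in the other 10 libraries. The hsf-1 transcript was counted at 67.6 to 154 CPM in N2 control, 95.8 to 126 in N2 heat shock, 83.4 to 109 in sy441 control and 76.6 to 129 in sy441 heat shock. These ranges overlapped, and a gene-level count cannot show the truncated protein. Summed major sperm protein transcripts ran from 1.73 to 34.1 CPM in the N2 libraries and from 114 to 351 CPM in the sy441 libraries, in control and heat-shocked animals alike. Summed intestinal markers ran from 12600 to 39100 CPM in N2 and from 32900 to 83300 CPM in sy441. The part of these differences in make-up in any result below was not tested.

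Of the 140 genes that rose in N2, 133 had a smaller fold change in the mutant, yet only 2 genes passed edgeR's test of the difference itself. The 140 were chosen by their N2 values, which by itself favours a smaller value in the mutant. Choosing by sy441, 25 of 50 rises and 46 of 52 falls were smaller in size in N2. Of the 40 falls called in N2, 21 were smaller in size in sy441. In edgeR's quasi-likelihood test with Benjamini-Hochberg adjustment at 0.05, heat raised 140 genes (0.78% of those tested) and lowered 40 (0.223%) in N2. In sy441 it raised 50 (0.279%) and lowered 52 (0.29%), together 0.568% against 1% in N2. The order of these totals was not stable: sy441 had more calls than N2 without N2 control replicate 1 (105 against 102), without N2 heat shock replicate 1 (146 against 135) or 3 (103 against 101), without N2 control 3 and heat shock 1 together (248 against 140), without those 4 libraries (593 against 580), and when each genotype was fitted alone (116 against 112). Within sy441, libraries with the same number deviated together, and a replicate block within each genotype left 61 calls in sy441, 102 in N2 and 0 in the interaction. Below, calls that this block ended are marked for sy441 and not for N2, where 180 calls became 102. In edgeR the interaction was called for 2 genes (0.0111%), both with a smaller response in the mutant, and for 0 genes with a larger one. At an unadjusted p under 0.05 there were 455 genes (2.54%), 349 (1.94%) with a smaller or more negative response in sy441 and 106 (0.591%) with a larger or more positive one. That total is a smaller share than the 0.05 that uniform p-values would give. These counts are therefore descriptive and show no excess of small p-values. DESeq2 called 27 genes in the first direction and 3 in the second (0.168% in all), and limma voom with sample quality weights called 29 and 3 (0.178%). For the heat response itself DESeq2 called 2.85% of genes in N2 and 2.27% in sy441, and voom 7.98% and 4.43%. These tools shared 12 calls, and the 2 genes called by edgeR were among them.

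The 2 heat comparisons use different libraries, so each genotype's values can be set beside the genes chosen in the other. Of the 225 genes called in either genotype, 57 were called in both, which is 31.7% of the N2 calls and 55.9% of the sy441 calls. In all 57 the direction was the same, with 32 rises and 25 falls. Of the 180 genes called in N2, 169 had the same sign in sy441, and all 102 genes called in sy441 had the same sign in N2.

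The 140 genes that rose in N2 had a median log2 fold change of 3.02 there and 1.19 in sy441, and the mutant value was the smaller for 133 of them. As a share of the N2 log2 fold change, the mutant kept a median of 43.9% (quartiles 20.7% and 68.5%). The response was absent (under 25% in size) for 42 of these genes, weaker (25% to under 75%) for 65, similar for 28, stronger for 4 and opposite for 1. For the 40 genes that fell in N2, the median kept share was 99.2%, with 1 absent, 10 weaker, 26 similar and 3 stronger. Seen from the mutant, the 50 genes that rose in sy441 had a median of 3.43 there and 3.21 in N2, a median kept share of 96.9%, and none was absent in N2. The 52 genes that fell in sy441 kept a median of 72% in N2. A gene chosen by its call in a genotype tends to have a high value in that genotype's own libraries, so these shares are descriptions and no test was made of them. The first replicate of each sy441 group weighed on the first share. Control replicate 1 was the highest of the mutant controls for 105 of the 140 genes (75%, against 43.3% of all tested genes). Heat shock replicate 1 was the highest heat-shocked mutant library for 91 of the 140 (65%, against 38.8%). The median kept share was 61.8% without the control, 37.4% without the heat-shocked library and 51.35% without the pair.

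**Figure D1:**
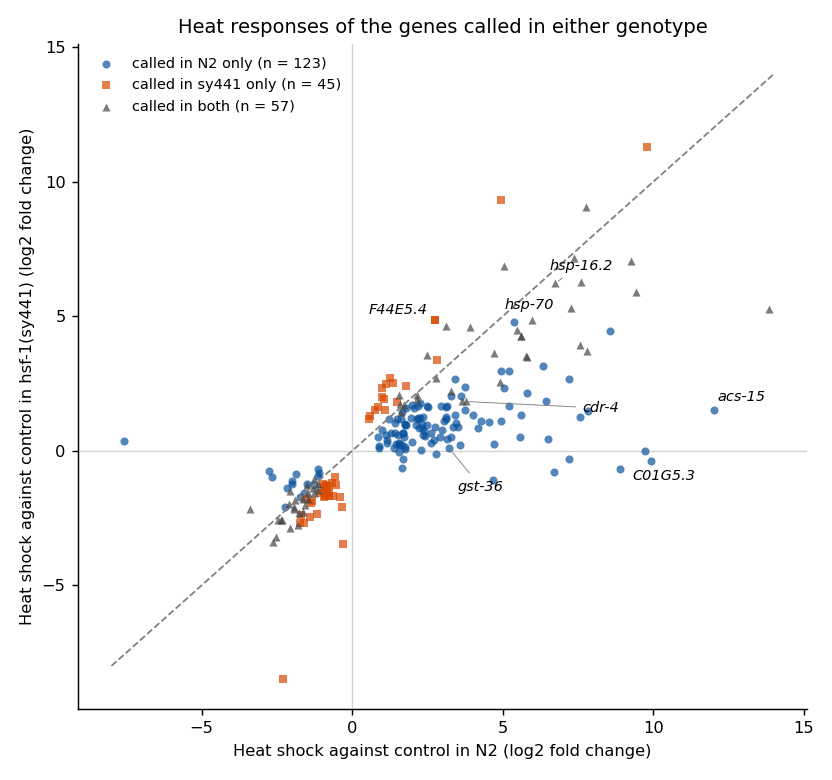
Log2 fold changes after heat shock in N2 (horizontal axis) and in hsf-1(sy441) (vertical axis), a point for each of the 225 genes called in either genotype; the dashed line marks equal responses. Rises called in N2 lie mostly below the line, with medians of 3.02 in N2 and 1.19 in the mutant, while genes called in both (triangles, n = 57) share their direction.

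The gene with the clearest difference was gst-36, which encodes a glutathione S-transferase, an enzyme family that conjugates glutathione to reactive compounds. It lies on the minus strand of chromosome X from 9861646 to 9862960 (WBcel235), where scav-5 overlaps it on the opposite strand, and it is not stated whether the counting used strand. In N2 controls gst-36 stood at 14.4, 15.8 and 14.8 CPM, and after heat at 114, 139 and 160 CPM. In sy441 it stood at 28.9, 23.7 and 28.3 CPM in controls and at 32.9, 22.5 and 32.3 CPM after heat. The N2 groups did not overlap, while the mutant groups did, and the mutant controls lay above the N2 controls. Heat raised gst-36 in N2 by 3.20 on the log2 scale (SE 0.22, adjusted p = 2.18e-05), while the fitted value in sy441 was 0.12 (SE 0.20, adjusted p = 1). The difference of -3.08 (SE 0.29, 95% interval -3.70 to -2.46) had an adjusted p of 0.00124. It was called in 23 of 24 alternative fits, with adjusted p-values from 6.85e-20 to 0.0517; the exception was the fit with the replicate number as a block within each genotype.

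The other called gene, C01G5.3 (chromosome IV, 6536208 to 6537671, plus strand), was close to the limit of detection. It had no count in the 3 N2 controls and stood at 1.90, 1.31 and 1.22 CPM in heat-shocked N2, which is at least 114-fold above a floor of 3 counts over the control group. In sy441 it stood at 0.145, 0.230 and 0.226 CPM in controls and at 0.105, 0.254 and 0.0979 CPM after heat. The mutant groups overlapped at this low level. The adjusted p of the difference was 0.0391, and it was called in 9 of 24 alternative fits (adjusted p 1.35e-06 to 0.554). Leaving out a single library ended the call in 9 of 12 cases.

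The small heat shock proteins of the hsp-16 family, which are strongly heat-inducible chaperones, rose in both genotypes. All 6 members were called in N2 and all 6 in sy441, and none was called in the interaction by edgeR, DESeq2 or voom. Their median log2 fold change was 5.80 in N2 and 4.26 in sy441, beside medians near zero for all tested genes (0.0461 and -0.0032). All 6 had a smaller fold change in the mutant, with a median difference of -1.35 against -0.0519 over all tested genes. The family sits in 2 clusters on chromosome V, which are described in turn and were not compared by a test.

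In the cluster at 1804334 to 1805875 of chromosome V, hsp-16.2 stood at 4.54, 5.53 and 8.23 CPM in N2 controls and at 0.904, 2.41 and 2.38 CPM in sy441 controls. After heat it reached 943, 506 and 518 CPM in N2 and 196, 95.9 and 138 CPM in sy441. The mutant was below N2 in every library of both conditions, and the fold change was of similar size: 6.75 in N2 (SE 0.49) and 6.24 in sy441 (SE 0.48), a difference of -0.51 with a 95% interval from -1.70 to 0.68. Its neighbour hsp-16.41 reached 2410, 604 and 646 CPM in heat-shocked N2, from 3.30 to 9.4 in controls, and 275, 126 and 184 CPM in heat-shocked sy441, from 1.97 to 3.31 in controls. Here too the heat-shocked groups did not overlap, while the controls overlapped narrowly, at 3.30 CPM in N2 and 3.31 CPM in sy441. The difference in response was -1.32 (interval -2.90 to 0.26), and -0.32 without N2 heat shock replicate 1, the library with 2410 CPM.

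In the cluster at 9087293 to 9090604 of chromosome V, the mutant controls overlapped those of N2 or lay above most of them. Hsp-16.1 stood at 11.1, 14.3 and 22.5 CPM in N2 controls and at 33.6, 21.7 and 22.4 CPM in sy441 controls. After heat it reached 1190, 553 and 601 CPM in N2 and 631, 354 and 508 CPM in sy441, so that the heat-shocked groups overlapped. The difference in response was -1.35 (interval -2.41 to -0.29, adjusted p = 1). Hsp-16.48 went from 14.5, 19.8 and 37.4 CPM to 2800, 571 and 646 CPM in N2 and from 70.5, 33.3 and 59.1 CPM to 924, 372 and 538 CPM in sy441. Its difference in response was -2.32 (interval -4.08 to -0.56, adjusted p = 1), and -1.13 without N2 heat shock replicate 1, the library with 2800 CPM. The rise of hsp-16.48 in sy441 was called in 18 of 25 alternative fits, and with the replicate block within each genotype the adjusted p was 0.0673 for hsp-16.48 and 0.0659 for hsp-16.49. The copies hsp-16.11 and hsp-16.49 gave nearly the same values as hsp-16.1 and hsp-16.48; each pair is nearly identical in sequence, so their reads may have been divided between them and the members are not independent.

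**Figure D2:**
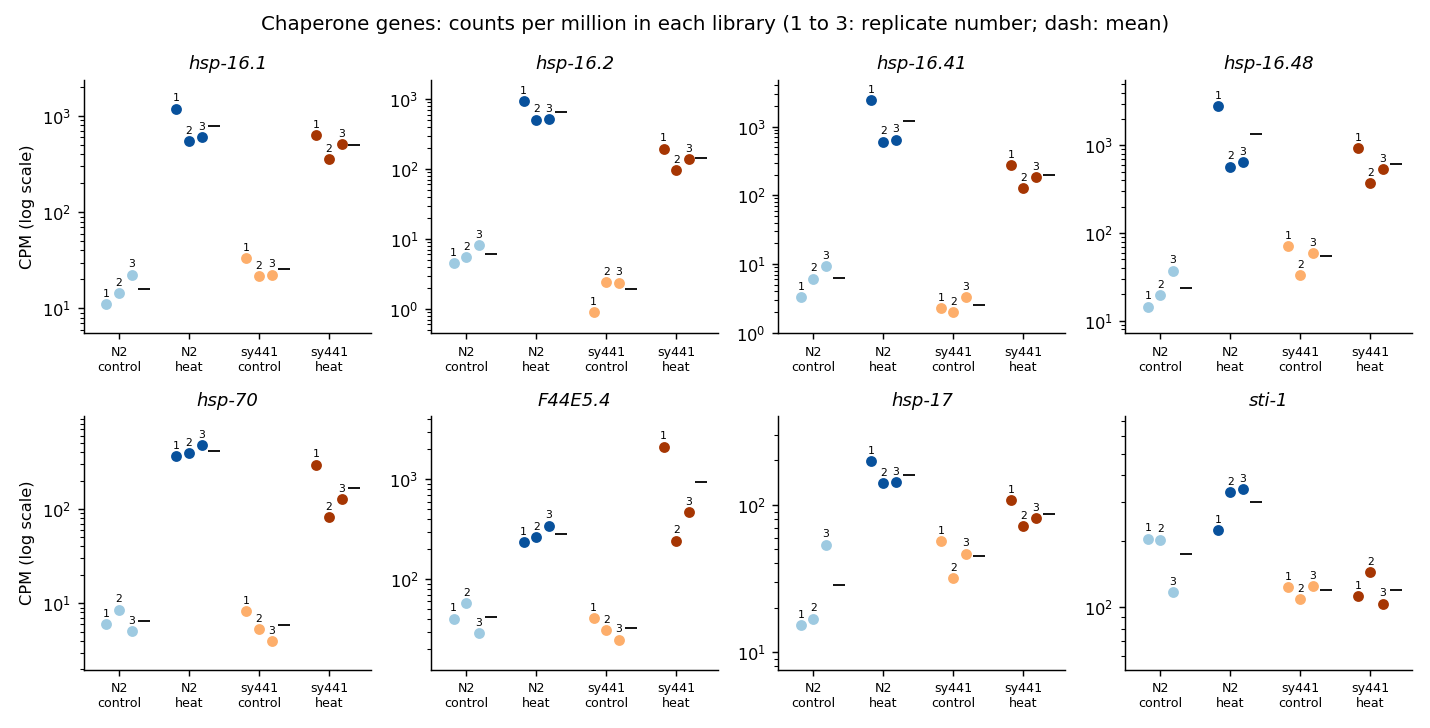
CPM on a log axis in each of the 12 libraries for 8 chaperone genes; the digit beside a point is the replicate number and the dash is the group mean. All 4 hsp-16 genes rose in both genotypes, hsp-16.2 and hsp-16.41 to lower levels in the mutant, and F44E5.4 reached 2130 CPM in sy441 heat shock replicate 1.

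The inducible HSP70 genes did not move in a single direction. Hsp-70 (C12C8.1 in older literature) on chromosome I went from 6.04, 8.54 and 5.06 CPM to 362, 393 and 478 CPM in N2, and from 8.22, 5.32 and 3.94 CPM to 295, 82.5 and 128 CPM in sy441. Controls overlapped and the heat-shocked mutants lay below the heat-shocked N2 animals. The rise was called in both genotypes, and the difference in response was -1.12 (interval -2.35 to 0.10). The adjoining, divergently transcribed pair F44E5.4 and F44E5.5 on chromosome II, which also encodes inducible HSP70, went the other way. F44E5.4 went from 40.5, 57.3 and 29 CPM to 235, 264 and 344 CPM in N2, and from 40.7, 30.9 and 24.9 CPM to 2130, 244 and 471 CPM in sy441. The heat-shocked groups overlapped, since the large mutant mean rests on replicate 1. Its rise was called in sy441 (log2 fold change 4.88, adjusted p = 0.00588) and missed the threshold in N2 (2.73, adjusted p = 0.0544). The difference in response of 2.15 (interval 0.38 to 3.91, adjusted p = 1) was 0.86 without sy441 heat shock replicate 1. F44E5.5 shares almost all of its sequence with F44E5.4 and gave the same pattern, with a difference of 2.11. The constitutive hsp-1 and the exchange factor hsp-110 passed no test, with differences in response of -0.16 (interval -1.04 to 0.71) and -0.55 (interval -1.47 to 0.37).

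Among the other 10 small heat shock proteins, hsp-17 alone was called, in N2. It stood at 15.2, 16.9 and 53.7 CPM in N2 controls and at 199, 141 and 142 CPM after heat, and at 56.8, 31.8 and 46.7 CPM in sy441 controls and 108, 72.1 and 81.2 CPM after heat. Every heat-shocked library lay above the controls of its genotype, and the mutant began higher than N2 controls 1 and 2 and ended lower than all heat-shocked N2 libraries. The difference in response was -1.54 (interval -2.79 to -0.29, adjusted p = 1). Without N2 control replicate 3 and N2 heat shock replicate 1 it was -2.19 and passed the threshold (adjusted p = 0.0369), and limma voom called it with all libraries (adjusted p = 0.00185). The remaining members, including the embryonic sip-1 and the muscle protein hsp-25, had differences with intervals that spanned zero, except F08H9.4, which did not rise above 1.07 CPM in any library.

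HSP90 and its cochaperones did not pass any of the 3 tests, and 11 of the 12 members had a negative difference in response, as had 56% of all tested genes. Their median log2 fold change was 0.376 in N2 and -0.00348 in sy441, with a median difference of -0.307. The list's median difference was -0.142 without sy441 heat shock replicate 1 and -0.109 without those 4 libraries. The cochaperone sti-1, which links HSP70 to HSP90, was the member whose interval did not span zero: 205, 203 and 117 CPM in N2 controls and 225, 335 and 345 CPM after heat, against 124, 109 and 125 CPM and 112, 144 and 104 CPM in sy441. The heat-shocked N2 libraries all lay above the heat-shocked mutants. The difference was -0.78 (interval -1.53 to -0.03, adjusted p = 1). Hsp-90 itself stood at 2180 to 4680 CPM in N2 controls, 4470 to 5470 in heat-shocked N2, 2460 to 2820 in sy441 controls and 2330 to 2940 in heat-shocked sy441, with a difference of -0.41 (interval -1.24 to 0.42).

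The folding machinery beyond these families showed no difference called by edgeR. None of 29 DnaJ cochaperones, 8 subunits of the CCT chaperonin, 6 prefoldin subunits or 14 regulators of HSF-1 was called in any comparison. All 8 CCT subunits had a negative difference in response (56% of all tested genes did), with a median of -0.319, and none of the 8 had an unadjusted value under 0.05. The endoplasmic reticulum HSP70 hsp-4, a standard readout of the unfolded protein response there, stood at 446, 398 and 223 CPM in N2 controls and at 649, 1050 and 1280 CPM after heat, and at 329, 350 and 332 CPM in sy441 controls and 822, 858 and 630 CPM after heat. The groups were separate in both genotypes. The rise was called in N2 (1.48, adjusted p = 0.0301) and missed the threshold in sy441 (1.19, adjusted p = 0.107), and the difference was -0.29 (interval -1.16 to 0.58).

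**Figure D3:**
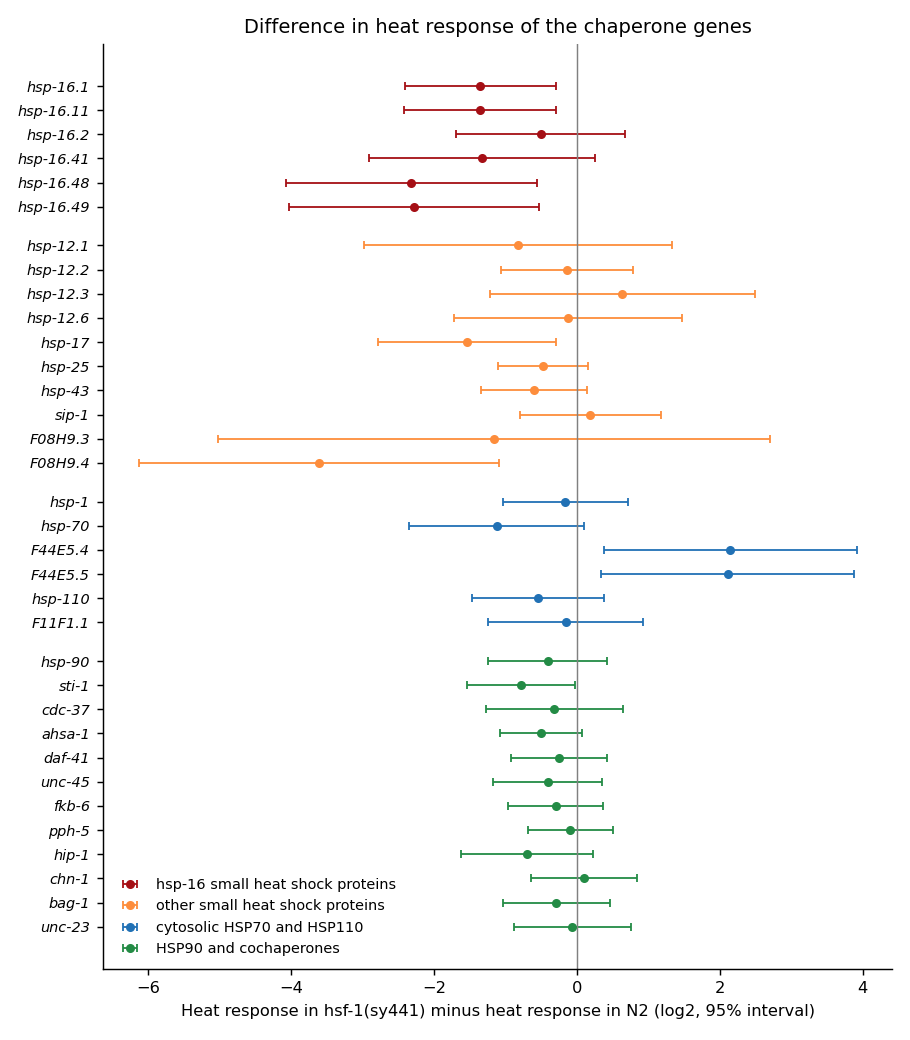
Difference in heat response, sy441 minus N2 (log2), with its 95% interval for the 34 tested genes of 4 chaperone lists; zero means equal fold changes. All 6 hsp-16 genes lie left of zero, the F44E5 pair lies right of it, and no gene passed the adjusted threshold in edgeR with all 12 libraries.

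A set of genes outside the chaperones, none under 3.99 CPM in any library, rose in N2 and had smaller fitted values in the mutant. Of these, 6, described next, did not pass the adjusted threshold in edgeR (adjusted p = 0.513 for each) but were called by both DESeq2 and limma voom. Ttll-12, bre-1, T25D10.1 and Y94H6A.10 were named after these calls were seen. Ttll-12, a tubulin tyrosine ligase family member, went from 110, 113 and 96.7 CPM to 245, 338 and 359 CPM in N2, and from 85.2, 110 and 88.2 CPM to 101, 125 and 117 CPM in sy441. Dhs-9, a short-chain dehydrogenase, went from 20.6, 18.2 and 16.4 CPM to 48.4, 53.5 and 58.8 CPM in N2 and from 34.6, 25.2 and 24 CPM to 34.6, 29.9 and 34.6 CPM in sy441. For both genes the N2 groups were far apart, while the mutant groups overlapped.

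Bre-1 encodes GDP-mannose dehydratase, which makes the fucose donor of glycan synthesis and was found through worms resistant to a bacterial toxin. It went from 12.3, 13.9 and 25.9 CPM to 65.6, 55.1 and 53.6 CPM in N2, and from 28.1, 19.5 and 23.9 CPM to 24.8, 24.9 and 24.8 CPM in sy441. Its 3 heat-shocked mutant libraries were level with the mutant controls. The difference of -1.68 (SE 0.37) became -2.14 and passed the threshold (adjusted p = 0.0283) without N2 control replicate 3. Lact-4, of the beta-lactamase-like LACT family, rose from 10.1, 13.6 and 23.1 CPM to 66.7, 38.5 and 42.2 CPM in N2, and stood at 21.4, 11.5 and 13.3 CPM and then 10.9, 7.64 and 11.3 CPM in sy441. M05D6.3 overlaps lact-4 on the opposite strand. It was itself called in N2 (log2 fold change 3.27) and not in sy441 (0.52). The strand setting of the counting is not stated, so reads may be shared between these 2 genes. T25D10.1 went from 4.13, 3.99 and 6.26 CPM to 16.7, 12.6 and 16.6 CPM in N2 and from 9.45, 4.79 and 5.58 CPM to 6.32, 4 and 5.57 CPM in sy441. For bre-1, lact-4 and T25D10.1, all heat-shocked N2 libraries lay above all mutant libraries.

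Y94H6A.10 rose in N2 and missed the threshold in the mutant (log2 fold change 1.32, adjusted p = 0.321). It went from 27, 32.2 and 68.5 CPM to 843, 598 and 639 CPM in N2, and from 132, 47.2 and 57.9 CPM to 270, 130 and 189 CPM in sy441. The mutant groups overlapped through control replicate 1. Its difference in response was -2.71 (SE 0.60, interval -4.01 to -1.41). Cdr-4, a cadmium-responsive gene, rose in both genotypes, from 9.56, 16 and 31.1 CPM to 262, 226 and 228 CPM in N2 and from 26.5, 12.9 and 25.5 CPM to 79.0, 72.8 and 79.7 CPM in sy441. Both rises were called (that in sy441 had an adjusted p of 0.104 with the replicate block within each genotype), and the mutant reached a lower level in every library. The difference of -1.82 (interval -2.91 to -0.73) had an adjusted p of 1 in edgeR and 0.00537 in limma voom. Gst-1, another glutathione S-transferase, stood at 288 to 311 CPM and then 535 to 624 CPM in N2, and at 188 to 250 CPM and then 230 to 264 CPM in sy441. Its rise was called in N2 (0.90, adjusted p = 0.0302) and its difference was -0.80 (interval -1.34 to -0.26), called by limma voom (adjusted p = 0.0257) and not by edgeR.

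**Figure D4:**
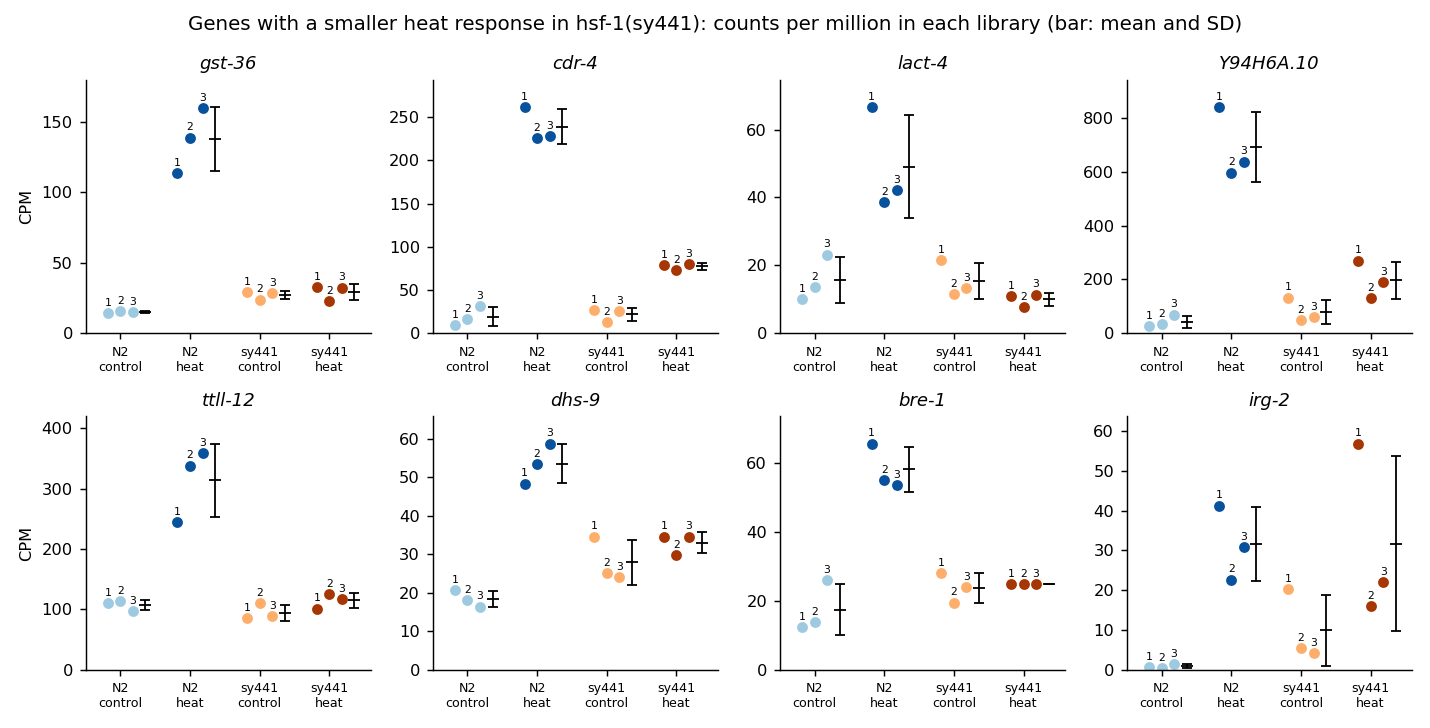
CPM in each library for 8 genes with a smaller heat response in the mutant; bars give the mean and SD of 3 libraries. In gst-36, lact-4, ttll-12, dhs-9 and bre-1 the heat-shocked N2 libraries stand alone, cdr-4 rose to a lower level in the mutant, Y94H6A.10 missed the threshold there, and irg-2 was already raised in mutant controls.

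For another group of genes the smaller response came with a raised level in the unheated mutant, and for irg-2, Y58A7A.3 and faah-2 the levels after heat overlapped. Irg-2, an infection response gene, stood at 0.647, 0.476 and 1.39 CPM in N2 controls and at 20.2, 5.42 and 4.15 CPM in sy441 controls. After heat it reached 41.3, 22.7 and 30.8 CPM in N2 and 56.9, 16.1 and 22.1 CPM in sy441, so that the heat-shocked groups overlapped and the controls did not. The difference in response was -3.55 (interval -5.45 to -1.65, adjusted p = 0.884 in edgeR and 0.021 in DESeq2). In edgeR without those 4 libraries it was -3.50 and passed the threshold (adjusted p = 0.00772). That fit was added after the data were seen, and it leaves out sy441 control replicate 1, the highest irg-2 control. The 3 neighbours Y58A7A.3, Y58A7A.4 and Y58A7A.5 on chromosome V (5077854 to 5086969) rose in N2 by 2.61, 2.99 and 3.11 on the log2 scale, each called, and had fitted values of 0.66, 0.76 and 1.24 in sy441, none called. Y58A7A.3 went from 9.84, 9.73 and 14.9 CPM to 62.0, 71.8 and 77.3 CPM in N2 and from 91.9, 33.9 and 29.1 CPM to 114, 65.4 and 65.5 CPM in sy441. Faah-2, a fatty acid amide hydrolase, went from 14.5, 17.9 and 22.9 CPM to 82.3, 84.5 and 124 CPM in N2 and from 77.6, 47.6 and 32 CPM to 143, 59.3 and 57.9 CPM in sy441. In both genes the unheated mutants lay above the unheated N2 animals, and sy441 control replicate 1 was the highest control. The Y58A7A genes, faah-2 and Y47H10A.5 were named after their values were seen.

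Y47H10A.5 was also higher in unheated mutants and was called in both genotypes, although its adjusted p in sy441 was 0.0641 with the replicate block within each genotype. It stood at 1.90, 1.74 and 1.64 CPM in N2 controls, at 36.5, 64.7 and 56.3 CPM in heat-shocked N2, at 123, 43.9 and 34.5 CPM in sy441 controls and at 307, 462 and 426 CPM in heat-shocked sy441. The heat-shocked mutants were the highest of all groups, although the fold change was smaller (2.57 on the log2 scale against 4.90 in N2). Sqst-1, the autophagy receptor p62, went from 28.4, 28.2 and 24.3 CPM to 97.6, 134 and 151 CPM in N2 and from 118, 47.8 and 39.8 CPM to 199, 146 and 126 CPM in sy441. Its rise was called in N2 (2.24, adjusted p = 0.00915) and missed the threshold in sy441 (1.2, adjusted p = 0.216), with a difference of -1.04 (interval -2.09 to 0.01).

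Several genes that were barely detected in unheated N2 gave the largest fitted differences. Acs-15, an acyl-CoA synthetase, had no count in the 3 N2 controls and stood at 4.95 to 7.91 CPM after heat, at least 496-fold above a floor of 3 counts over the group. In sy441 it stood at 0.265, 0.206 and 0.131 CPM in controls and at 0.75, 1.00 and 0 CPM after heat. The mutant response thus varied between libraries, and the adjusted p of the difference was 0.513 in edgeR, 0.0113 in DESeq2 and 0.00859 in limma voom. Kin-5, a tyrosine kinase gene that the study names, had no count in N2 controls and stood at 0.0963, 0.212 and 0.360 CPM in heat-shocked N2. It stood at 0.736, 0.992 and 0.833 CPM in sy441 controls and at 0.570, 1.07 and 0.404 CPM after heat, above the N2 libraries in both conditions (adjusted p of the difference 0.472 in edgeR, 0.0113 in DESeq2 and 0.0355 in limma voom).

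A heat-induced locus on chromosome II held 4 of the named genes. Y53F4B.8 (14995045 to 14997446) rose from 0.198, 0.196 and 0.260 CPM to 46.3, 25.9 and 53.8 CPM in N2 and from 1.17, 0.859 and 0.714 CPM to 27.5, 5.61 and 8.42 CPM in sy441. Both rises were called, and the difference was -3.66 (interval -5.23 to -2.08, adjusted p = 0.513). Y53F4B.7 next to it, and Y53F4B.24 and Y53F4B.26 further along, were also called in both genotypes and had smaller fitted values in sy441. With the replicate block within each genotype the call of Y53F4B.24 in sy441 was lost (adjusted p = 0.114). Y53F4B.7 and Y53F4B.26 have the same length on opposite strands, and their sequences were not compared. Reads may be shared between them, so these genes may not be independent. Y53F4B.24 had no count in N2 controls and 14.1, 16.6 and 36.6 CPM after heat, while in sy441 it went from 0, 0.181 and 0.369 CPM to 8.91, 4.79 and 7.52 CPM. The F-box genes fbxa-161, fbxa-162 and fbxa-163 lie side by side on chromosome II (1606595 to 1610730). Of these, fbxa-161 and fbxa-162 are annotated as pseudogenes, as is Y53F4B.8. Fbxa-163 went from 0, 0 and 0.0453 CPM to 3.59, 4.81 and 3.74 CPM in N2 and from 3.03, 0.847 and 0.393 CPM to 9.53, 25.4 and 21.1 CPM in sy441, so that the heat-shocked mutants were highest although the fitted difference was negative. Its rise in sy441 had an adjusted p of 0.148 with that block.

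No positive difference was called by edgeR (106 genes had one at an unadjusted p under 0.05), while DESeq2 and limma voom called 3 each. A positive difference is a larger rise or a smaller fall in the mutant. The DESeq2 call of K09F6.15, described below, was a smaller fall (-2.75 in N2 and -0.75 in sy441). Among genes called in sy441 and not in N2, gst-24, a further glutathione S-transferase, went from 2.89, 2.03 and 2.3 CPM to 5.37, 5.08 and 5.21 CPM in N2 and from 8.31, 3.34 and 3.86 CPM to 46.4, 17.9 and 23.1 CPM in sy441. Groups were separate in both genotypes, and the difference was 1.38 (interval 0.20 to 2.56, adjusted p = 1). Nfm-1, the worm merlin homologue, stood at 11.7 to 13.3 CPM and then 16.4 to 19.7 CPM in N2, and at 17.5 to 23.4 CPM and then 40.4 to 55.4 CPM in sy441 (difference 0.64, interval 0.02 to 1.25), with an adjusted p of 0.0509 for its rise in sy441 under the replicate block within each genotype. E02D9.3 stood at 12.4 to 13.2 CPM and then 18.5 to 19.5 CPM in N2, and at 13 to 13.5 CPM and then 27 to 36.8 CPM in sy441 (difference 0.69, interval 0.14 to 1.25). In each of these 3 genes the direction of the heat response was shared and the fitted rise was larger in sy441. None of the 3 differences was called by edgeR, DESeq2 or limma voom. The genes were chosen by their call in sy441, which by itself favours a larger value there. The C-type lectin clec-221 and C25F9.2 were called in both genotypes. Clec-221 went from 0.198, 0.238 and 0.419 CPM to 2.44, 2.11 and 3.02 CPM in N2 and from 1.15, 0.520 and 0.476 CPM to 30.9, 10.7 and 11.9 CPM in sy441. C25F9.2 stood at up to 0.124 CPM and then 1.40, 3.31 and 3.26 CPM in N2, and at up to 0.362 CPM and then 57.3, 13.1 and 12.2 CPM in sy441. The interval of the C25F9.2 difference spanned zero (1.81, interval -0.60 to 4.21). In all of these except E02D9.3 the highest library was sy441 heat shock replicate 1.

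The positive end of the ranking by p held genes of other shapes. K09F6.15 fell in N2 from 2.77, 2.58 and 1.93 CPM to 0.493, 0.165 and 0.417 CPM (adjusted p = 0.00403), and stood at 7.92, 6.65 and 7.1 CPM and then 5.01, 4.60 and 3.28 CPM in sy441. The difference of 2.00 (interval 0.88 to 3.12) was called by DESeq2 (adjusted p = 0.0358). Swt-3, a sugar transporter of the SWEET family, went from 6, 6.58 and 6.44 CPM to 3.00, 3.27 and 2.99 CPM in N2, and stood at 21.9, 16.9 and 16.9 CPM and then 15, 17.5 and 25.6 CPM in sy441. Y51H4A.25 was level in N2, at 4.57 to 6.89 CPM and then 4.13 to 5.05 CPM, and went from 12.3, 6.19 and 5.56 CPM to 15.5, 20.0 and 23.8 CPM in sy441. Its difference of 1.54 was called by limma voom (adjusted p = 0.0191). It was also called in edgeR without those 4 libraries (adjusted p = 0.031), the fit added after the data were seen. C46G7.5 stood at 8.41 to 10.1 CPM and then 7.06 to 9.39 CPM in N2, and went from 3.61, 3.18 and 1.76 CPM to 6.30, 8.12 and 6.20 CPM in sy441, a difference of 1.45 that was called by limma voom (adjusted p = 0.0325). The remaining genes of this ranking, among them the nearly identical mpst-5 and mpst-6, did not exceed 4.23 CPM in any library, the level of Y105C5A.12.

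**Figure D5:**
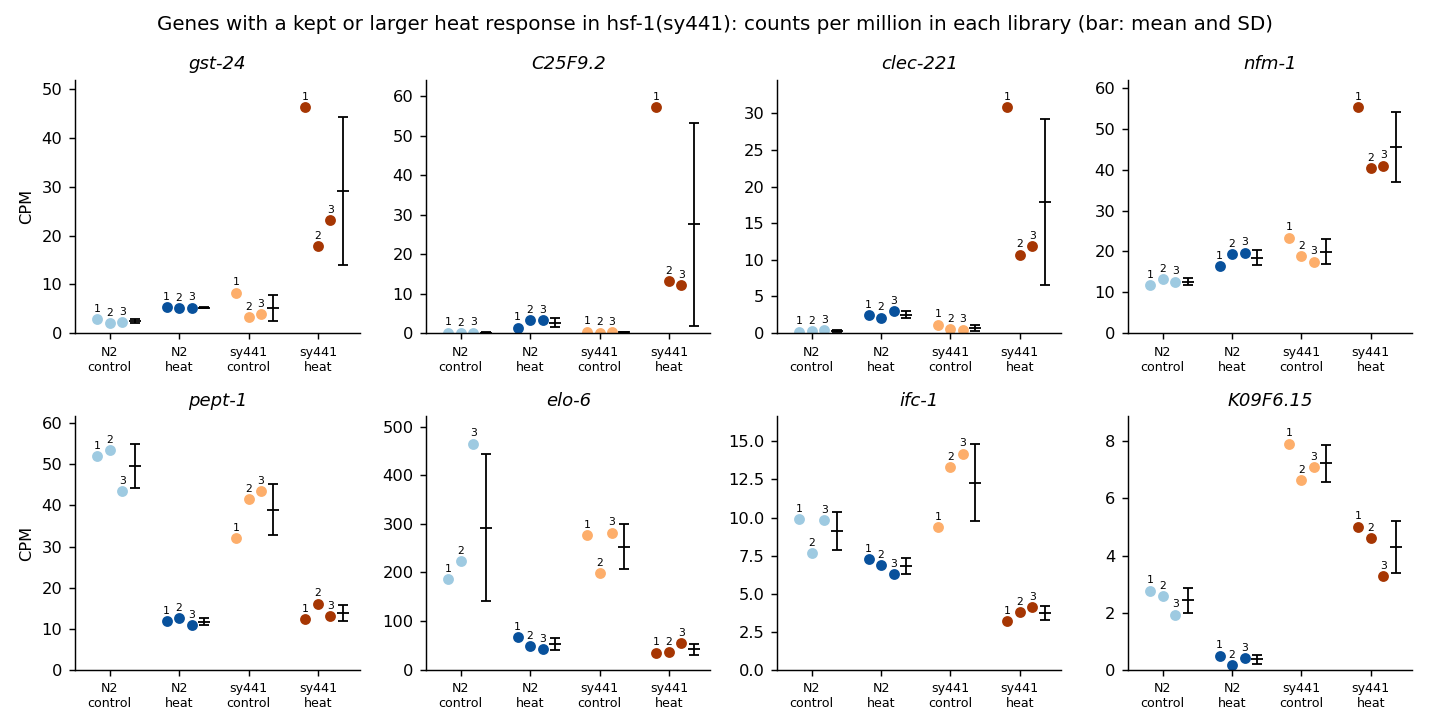
CPM in each library for 8 genes; bars give the mean and SD of 3 libraries. Gst-24, C25F9.2, clec-221 and nfm-1 reached higher levels in heat-shocked sy441 than in heat-shocked N2, pept-1 and elo-6 fell in both genotypes, ifc-1 was called as a fall in sy441 alone and K09F6.15 in N2 alone.

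Of 67 falls called in either genotype, 25 were called in both, 15 in N2 alone and 27 in sy441 alone. Among those called in both, pept-1, the intestinal peptide transporter, fell from 52.1, 53.4 and 43.5 CPM to 11.8, 12.5 and 10.9 CPM in N2 and from 32, 41.6 and 43.5 CPM to 12.4, 16.1 and 13 CPM in sy441 (adjusted p = 0.000185 and 0.0057). Elo-6, a fatty acid elongase, fell from 187, 223 and 465 CPM to 67.7, 48.0 and 43 CPM in N2 and from 277, 199 and 282 CPM to 35.1, 36.1 and 54.8 CPM in sy441, with a difference of -0.13. The haem transporter hrg-4 fell from 7.81, 9.94 and 9.74 CPM to 2.66, 1.16 and 0.616 CPM in N2 and from 6.58, 11.4 and 16.6 CPM to 0.795, 1.08 and 1.38 CPM in sy441. The groups did not overlap for any of these genes. The aspartyl protease gene asp-13 fell in both, from 158, 185 and 159 CPM to 19.7, 14.3 and 13.6 CPM in N2 and from 61.2, 211 and 177 CPM to 18.7, 39.3 and 42.4 CPM in sy441. Its difference of 1.24 (interval 0.05 to 2.42) was called in 1 of 24 alternative fits (adjusted p = 0.0114). That fit left out those 4 libraries and was added after the data were seen.

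Among the 27 falls called in the mutant alone, ifc-1, an intermediate filament protein, stood at 9.88, 7.67 and 9.84 CPM and then 7.29, 6.86 and 6.29 CPM in N2, and at 9.37, 13.3 and 14.2 CPM and then 3.20, 3.81 and 4.1 CPM in sy441 (difference -1.31, interval -2.04 to -0.57, called by limma voom with an adjusted p of 0.0295). Vit-1, a yolk protein made in the intestine, stood at 2260, 2570 and 1210 CPM and then 984, 1110 and 1790 CPM in N2, and at 3080, 2310 and 2310 CPM and then 920, 651 and 840 CPM in sy441. The N2 groups of vit-1 overlapped and the mutant groups did not (difference -1.04, interval -1.97 to -0.10). With the replicate block within each genotype the falls of vit-1 and tatn-1 in sy441 had adjusted p-values of 0.155 and 0.0721. The tyrosine aminotransferase tatn-1 and the amino acid transporter aat-4 fell by 1.68 and 1.73 on the log2 scale in sy441, and had fitted values of -0.78 and -0.93 in N2. None of these 4 differences passed the adjusted threshold in edgeR.

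None of the 16 genes that the study names for heat shock or age passed the interaction test in edgeR; kin-5 did so in DESeq2 and limma voom, as given above. Lips-11, a lipase-like gene, was called in both genotypes, from 0.621, 0.252 and 0.385 CPM to 2.73, 4.1 and 5.53 CPM in N2 and from 3.09, 4.33 and 2.87 CPM to 24.5, 12.6 and 10.6 CPM in sy441. The mutant was higher in both conditions, and the difference in response was -1.08 (interval -2.32 to 0.16). Its rise in sy441 had an adjusted p of 0.125 with the replicate block within each genotype. Lys-7, osg-1, dod-19 and asp-8 passed neither heat test, and their mutant libraries stood above every N2 library of the same condition, lys-7 for example at 208 to 517 CPM against 49 to 78.7 CPM in controls. Calu-1 and warf-1 had negative differences of -0.90 (interval -1.61 to -0.19) and -2.28 (interval -4.33 to -0.23), both with an adjusted p of 1. The list holds genes the study chose with these samples, so its counts are not independent evidence of direction: 5 members rose in N2 and 6 in sy441, chaperones included.

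The other lists are given beside the share of all tested genes called, 0.78% rises and 0.223% falls in N2 and 0.279% and 0.29% in sy441. Of 25 genes of the endoplasmic reticulum unfolded protein response, 2 rose in N2 and 1 in sy441; ckb-2, a choline kinase, was called in both, with 17.8 to 30.0 CPM in controls and 51.2 to 81.8 CPM after heat in N2, and 13 to 16.1 CPM and 55.4 to 63.9 CPM in sy441. Of 30 tested genes of the intracellular pathogen response, 2 rose in N2 and 1 in sy441, and of 25 intestinal immune effectors 1 in each. The median difference in response of the immune effectors was -0.566, and 0.311 without sy441 control replicate 1. No gene was called in any comparison among 32 proteasome subunits, 20 ubiquitin and ubiquitin ligase genes, 12 mitochondrial unfolded protein response genes, 18 DAF-16 targets, 78 cytosolic ribosomal protein genes, 69 core histone genes or 72 cytochrome P450 genes. Among 180 cuticle collagen genes 1 was called, col-49 in N2, at under 2 CPM, and among 27 autophagy genes sqst-1 was called in N2. Of 159 C-type lectin genes, 2 rose and 2 fell in N2, and 1 rose and 2 fell in sy441. Of 184 F-box A genes, 4 rose and 1 fell in N2, and 2 rose in sy441. The N2 rises include the pseudogenes fbxa-161 and fbxa-162. Gst-36 and C01G5.3 are in none of these lists, and no list member was called in the interaction by edgeR. DESeq2 or limma voom called 8: hsp-17, cdr-4, gst-1, irg-2, kin-5, col-49, col-63 and clec-79, the last 2 named after these calls were seen.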

How the data were processed

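Whole-animal poly-A RNA of 12 samples was sequenced as paired-end reads, and the authors deposited raw read counts per gene; the labels and methods name FastQC, HISAT2, HTSeq and edgeR with the WBcel235 build, and their versions, the strand setting and the treatment of multiply mapping reads are not given in the sources used here. Titles with "K" were read as controls, because their treatment field gives none. The deposited table had no column outside these samples.

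Counts were filtered with filterByExpr and scaled by the trimmed mean of M values. The 4 group means were fitted over all 12 libraries with edgeR's quasi-likelihood F test (robust, legacy), p-values were adjusted over the 17946 tested genes by Benjamini-Hochberg at 0.05, and the interaction was (sy441 heat shock minus control) minus (N2 heat shock minus control). The fits were run on simulated counts in which some genes had a known interaction. Those counts held no N2 heat response, no other genotype difference and no shared replicate deviation. They therefore cannot show how the fits behave where these are present, as here. DESeq2, limma voom with sample quality weights, other filters and scalings, replicate blocks and left-out libraries were alternatives. Same-numbered sy441 control and heat shock libraries deviated together from their group means (correlations 0.551, 0.504 and 0.32). Of the N2 pairs, numbers 1 and 3 deviated in opposite directions (-0.622 and -0.559) and number 2 together (0.392). The labels do not say that a number marks a shared batch. A floor is 3 counts over a group and covers counting error only. Positions come from the Ensembl annotation of the same build.

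Genes were named by rule: all tested members of 4 chaperone lists, those called in the interaction with the 10 smallest p-values in each direction at 1 CPM or more in the highest group, the 10 largest rises and 5 largest falls per genotype among called, non-overlapping genes, up to 4 called members (or 2 by p) of each other list, and hsf-1 with genes the study names. Genes shared by DESeq2 and voom, genes called in sy441 alone or in both genotypes, and those said to be so in the text were added after values were seen. Not all genes named in these ways are described above. M70.1 and grsp-1 had negative differences called by DESeq2 (adjusted p = 2.17e-05 and 0.0113) and limma voom (0.0191 and 0.0257). Y38F1A.4, ZK1010.5 and spe-47 had negative differences called by DESeq2 alone. The members and lists were chosen with earlier results of these data known. Promoter motifs were not analysed here.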

Additional observations from a re-analysis of the deposited data

Results flagged for a closer look

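The heat responses of N2 and sy441 differed by the test of the interaction for 2 genes. For gst-36 the difference in log2 response was -3.08, and for C01G5.3 it was -10.31, a fitted value that depends on the prior count because C01G5.3 had no count in N2 controls. A check for single outlying samples was not made, since each group held 3.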

How the results depend on the processing

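The interaction was called for 2 genes, and for 30 with DESeq2, 32 with limma voom, 1 with the replicate block over all 4 groups, 0 with the replicate block within each genotype, 1 without sy441 control 1 and heat shock 1, and 16 without these and N2 control 3 and heat shock 1 (added after seeing the data). Leaving out each library gave 1 to 4. The N2 heat response (180 genes) gave 510 with DESeq2, 1432 with voom, 102 with the block within genotype, 112 from the 6 N2 libraries alone, 580 without the 4 libraries and 91 to 227 leaving out each library. The sy441 response (102 genes) gave 406 with DESeq2, 795 with voom, 165 with legacy=FALSE, 61 with the block within genotype, 248 without N2 control 3 and heat shock 1, 593 without the 4 libraries and 45 to 146 leaving out each library. The cause was not tested. The share of the N2 rise kept in sy441 ranged from 37.4% to 61.8% leaving out each library. The share of the sy441 rise kept in N2 was 92.1% with RLE factors, 93.4% with no filter, 105.6% with voom, 106.4% and 89.5% without the N2 and the sy441 pair, 105.4% without all 4, and 84.8% to 112.1% leaving out each library. Over all 4 groups the replicate numbers paired the samples only in part: of 18 same-numbered pairs, 11 had a correlation over 0.1 (range -0.622 to 0.551). In 9 of the 18 the best match of a library had the same number. For the genes described, calls in sy441 that the block within genotype ended are given beside the results. Calls in N2 that it ended are not marked. No called difference reversed. Genes under about 1 CPM are limited by depth.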
